A study of Homo sapiens with 9 samples.

Results

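The SWI/SNF subunit genes SMARCB1, SMARCA4, SMARCA2, ARID1A, ARID1B and PBRM1 were followed in 9 ATAC-seq libraries of VCaP cells, a human prostate cancer line. ATAC-seq marks open chromatin as peaks of insertion by the transposase Tn5. Peaks of the 9 deposited lists that shared at least 1 bp were merged into 94773 regions, and the 78 regions that overlapped a window around any of the 6 genes were taken as members. On hg19 the windows were chr22 24.10 to 24.21 Mb for SMARCB1, chr19 11.04 to 11.18 Mb for SMARCA4, chr9 1.97 to 2.24 Mb for SMARCA2, chr1 26.99 to 27.14 Mb for ARID1A, chr6 157.05 to 157.58 Mb for ARID1B and chr3 52.55 to 52.75 Mb for PBRM1. The SMARCB1 window was chosen with a region open in VCaP16 libraries already known, so the contrast of VCaP16 with VCaP_DMSO is given there as a description, without a test.

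The 3 groups held 3 libraries each. VCaP16 cells are VCaP cells that became resistant to enzalutamide, an inhibitor of the androgen receptor, and were maintained in 16 µM of it. VCaP_ENZ held VCaP cells given 10 µM enzalutamide for 96 h, and VCaP_DMSO held VCaP cells given the solvent. Every VCaP16 library came from cells in the drug, so an effect of resistance and one of exposure cannot be told apart, and the drug groups also differ in dose. VCaP16 is a single resistant line. Whether the replicates came from separate cultures is not in the labels, and the spread behind every p-value here may be technical. The lists held 53646 to 68921 peaks and no read counts. Depth is therefore unknown, and a stretch not called in a list may be open below the limit of the peak caller.

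SWI/SNF complexes use ATP to slide or evict nucleosomes and so open enhancers and promoters. SMARCA4 and SMARCA2 are alternative ATPases, and SMARCB1 is a core subunit that contacts the nucleosome. ARID1A and ARID1B are alternative subunits of the BAF form, and PBRM1 is a subunit of the PBAF form that carries bromodomains. Loss of SMARCB1 defines rhabdoid tumours, and in androgen-receptor-driven prostate cancer cells removal of the ATPases closes enhancers that the androgen receptor uses. A peak inside a gene window shows open DNA and does not measure the gene's transcript or protein.

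The promoters of the 2 genes that the results turn on show how different the sequence upstream of their starts is. The 250 bases before each start are given from RefSeq on GRCh38.p14, with every CpG dinucleotide in capitals. All 3 entries lie on the plus strand.

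SMARCB1, chr22:23786716-23786965: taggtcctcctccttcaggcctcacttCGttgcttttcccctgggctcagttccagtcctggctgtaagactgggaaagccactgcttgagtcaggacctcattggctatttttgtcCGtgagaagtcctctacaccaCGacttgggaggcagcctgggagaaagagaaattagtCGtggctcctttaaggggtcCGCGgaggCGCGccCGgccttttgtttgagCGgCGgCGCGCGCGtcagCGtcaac
SMARCA4, first entry, chr19:10960780-10961029: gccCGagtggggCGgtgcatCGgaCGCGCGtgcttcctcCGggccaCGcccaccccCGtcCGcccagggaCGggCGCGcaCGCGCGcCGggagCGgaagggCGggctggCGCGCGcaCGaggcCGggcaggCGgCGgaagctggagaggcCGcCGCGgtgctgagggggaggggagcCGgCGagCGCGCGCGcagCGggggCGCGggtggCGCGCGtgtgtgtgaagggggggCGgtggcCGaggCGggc
SMARCA4, other entry, chr19:10983874-10984123: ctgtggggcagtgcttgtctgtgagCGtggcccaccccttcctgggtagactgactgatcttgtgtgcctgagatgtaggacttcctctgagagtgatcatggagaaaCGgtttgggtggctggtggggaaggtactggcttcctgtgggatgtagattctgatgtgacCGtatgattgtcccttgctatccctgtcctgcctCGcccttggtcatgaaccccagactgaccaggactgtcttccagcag

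The first SMARCA4 entry held 44 CpG and a GC content of 82.4%, the SMARCB1 entry 16 CpG and 58.0%, and the other SMARCA4 entry 4 CpG and 55.6%. Over the 12 entries of the 6 genes the median was 21 CpG, against 11 over all 35116 entries. An androgen receptor element was searched as the half-site GNACA followed, after 3 bases of any kind, by its reverse complement TGTNC, which reads alike on both strands. It was in 0 of the 12 entries and in 0.328% of all entries. These letters say nothing of what binds. The promoter positions are on another build than the peaks and were not set against them, so no region below is assigned to a promoter, exon or intron. Parts of neighbouring genes may lie in the windows.

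Each window held regions that were open whatever the treatment. Of the 78 regions, 32 were called in all 9 libraries, or 41.0%, against 34.9% of all regions. A further 14 regions, or 17.9%, were called in a single library, against 22.6% of all regions, and 5 of these 14 came from VCaP16 replicate 3, which has the longest list. The other 32 were called in several but not all libraries. The 46 regions not called everywhere were mostly weak. Their median score was 6.08, on the authors' peak score, whose lowest value in any list is 2.0, and the largest score of a region called once was 9.24.

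The windows differed in how densely they were open. ARID1A held 13 regions, or 8.67 per 100 kb, with 5 called in all libraries, and SMARCB1 held 8 regions, or 7.27 per 100 kb, with 4 in all libraries. ARID1B, the widest window, held 32 regions, or 6.04 per 100 kb, with 15 in all libraries. PBRM1 held 10 regions with 4 in all libraries, and SMARCA4 held 7 with 2 in all libraries, both at 5.0 per 100 kb. SMARCA2 was the sparsest, with 8 regions, or 2.96 per 100 kb, and 2 in all libraries. It also had the longest stretch between neighbouring regions, 90.4 kb, against 35.7 kb in the ARID1A window.

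Per library, 54, 54 and 62 of the 78 regions were called in VCaP16, against 48, 52 and 48 in VCaP_ENZ and 53, 50 and 53 in VCaP_DMSO. As a share this was 72.7% ± 5.92 in VCaP16, 63.2% ± 2.96 in VCaP_ENZ and 66.7% ± 2.22 in VCaP_DMSO (SD, n = 3 each). All regions gave 63.4% ± 6.99 in VCaP16, 58.1% ± 4.97 in VCaP_ENZ and 57.2% ± 2.17 in VCaP_DMSO. The 78 include SMARCB1 region 5, which was known to be open in VCaP16 when its window was chosen. Over the other 77 regions VCaP16 called 53, 53 and 61, VCaP_ENZ 48, 52 and 47 and VCaP_DMSO 53, 50 and 53. VCaP16 and VCaP_ENZ thus each overlapped VCaP_DMSO, while every VCaP16 library lay above every VCaP_ENZ library. Over all regions VCaP16 and VCaP_ENZ overlapped, at 59.13% to 71.49% and 54.95% to 63.78% of regions per library. Within each window the numbers called overlapped between all groups. In the ARID1A window, for example, VCaP16 called 8, 11 and 10 regions, VCaP_ENZ 7, 8 and 7 and VCaP_DMSO 8, 8 and 9.

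**Figure D1:**
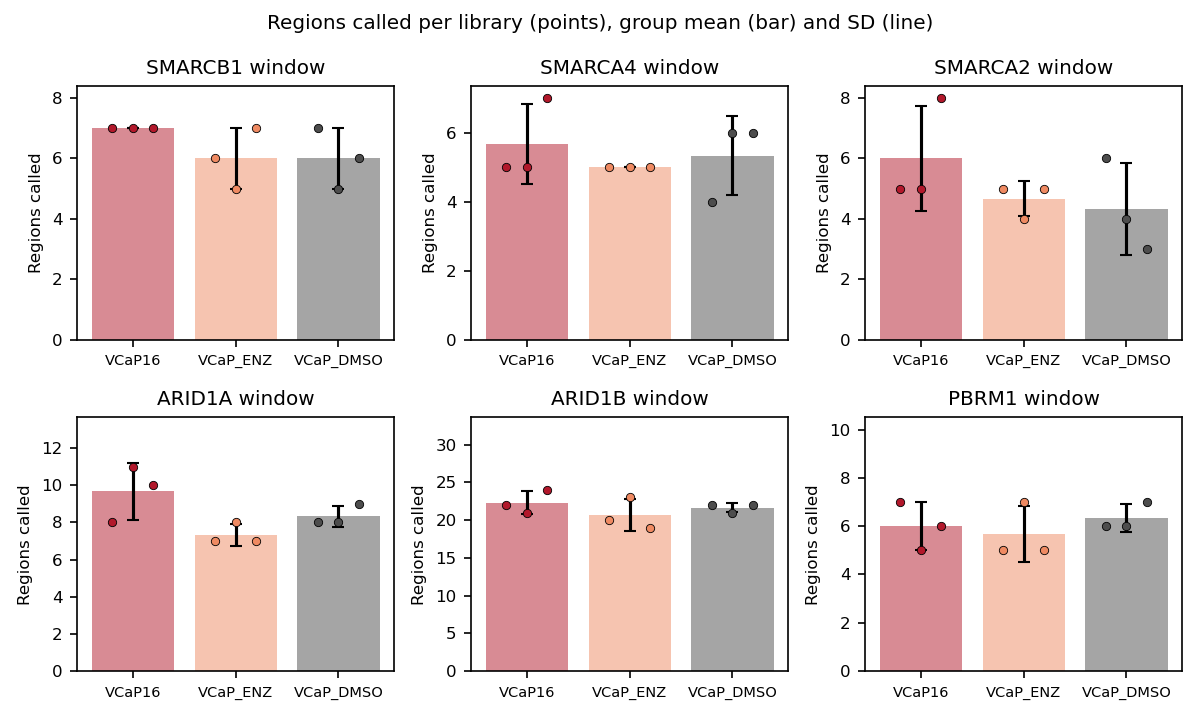
Number of merged regions called in each library, by gene window (y axis, count from 0), for VCaP16, VCaP_ENZ and VCaP_DMSO; points are libraries, bars are group means and lines are SD (n = 3). In the SMARCB1 window the 3 VCaP16 libraries called 7 regions each, while VCaP16 replicate 3 alone called all 8 regions of the SMARCA2 window and all 7 of the SMARCA4 window.

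To compare strength between lists of different length, each score was written as a percentile, the share of the 33033 regions called in all 9 libraries that scored lower in the same library, from 0 to 100. The 32 regions of the windows that were called everywhere had median percentiles between 4.19 and 98.2. The strongest was in the PBRM1 window and the weakest in the ARID1B window. Per window, the median of these percentiles was 78.1 for PBRM1, 65.8 for ARID1A, 62.2 for SMARCB1, 57.0 for SMARCA4, 49.5 for SMARCA2 and 36.9 for ARID1B.

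**Figure D2:**
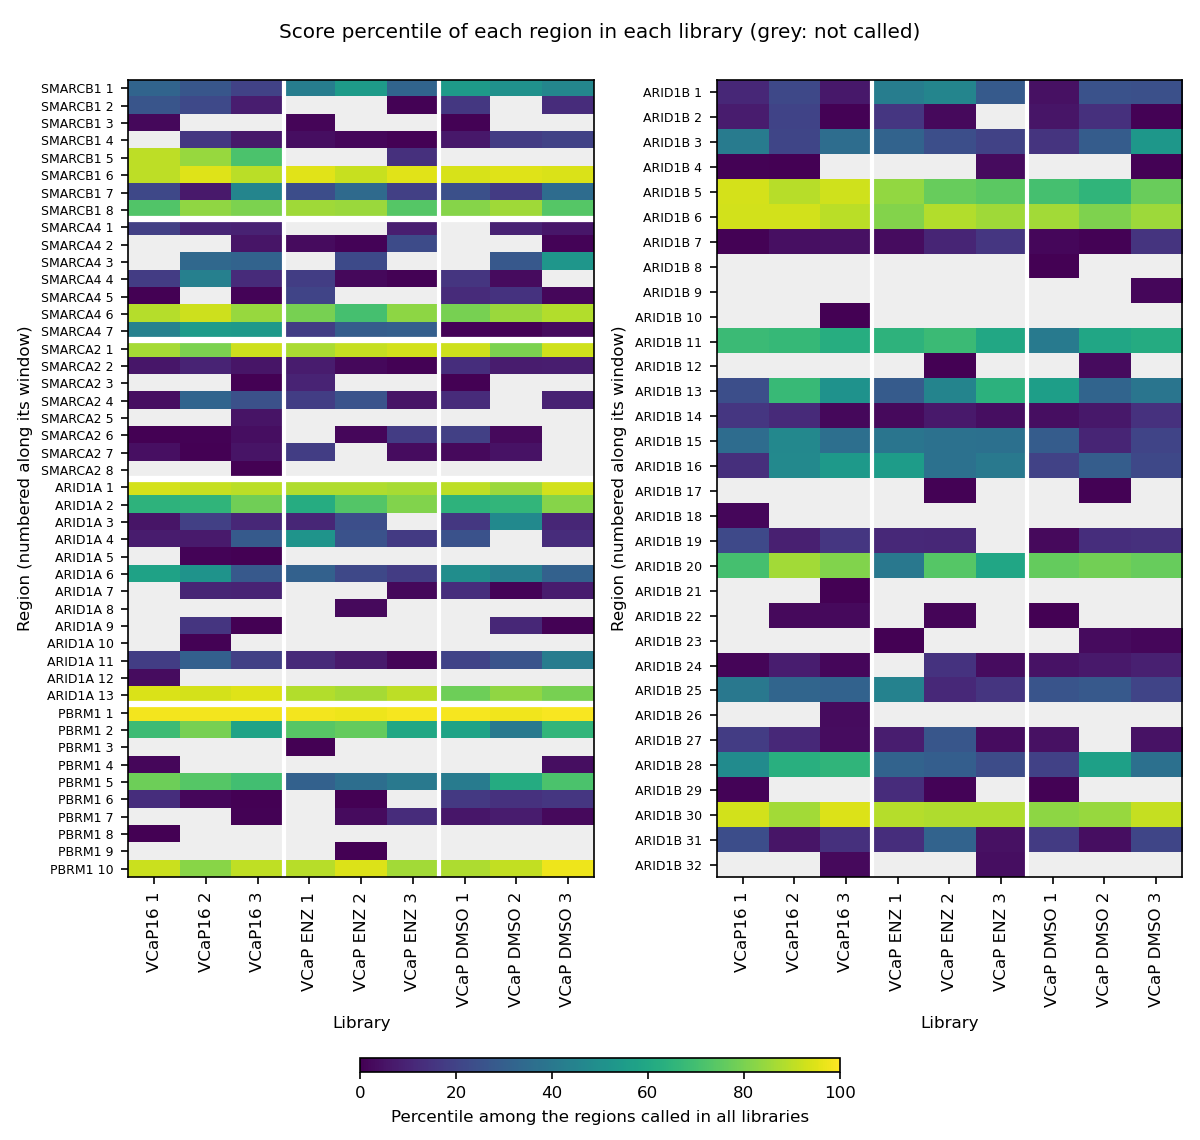
Score percentile (colour, 0 to 100) of the 78 regions (rows, numbered along each window) in the 9 libraries (columns, VCaP16, VCaP_ENZ and VCaP_DMSO from left to right); grey marks a region that was not called. Rows bright across all columns are the 32 regions called everywhere at their strongest, such as PBRM1 region 1, while SMARCB1 region 5 is bright in VCaP16 and grey in all VCaP_DMSO columns.

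In the SMARCB1 window, region 5 of 8 was open in VCaP16 and was called in no VCaP_DMSO library. It lies at chr22:24170860-24171399 and is the region that the window was chosen for. Its scores were 47.82, 41.29 and 40.7 in VCaP16. In VCaP_ENZ it was called in replicate 3 alone, at a score of 8.51, and the VCaP_DMSO lists held no peak there. The percentiles were 90.0, 84.6 and 71.7 in VCaP16, a mean of 82.1 ± 9.40 (SD, n = 3), and 13.8 in VCaP_ENZ replicate 3. The peaks of these 4 libraries shared the 249 bp of the VCaP_ENZ peak, from 24171042 to 24171290, so the same stretch was open in each. Over all regions, 1543 were called in 3 of 3 VCaP16 and 0 of 3 VCaP_DMSO libraries, which is 1.63%, and region 5 was the only such region of the 78. Nothing is read from this count, since the window was chosen from that contrast.

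The regions nearest to it did not follow it. Region 6, at chr22:24180913-24181882, was the strongest that all libraries called in this window, with percentiles of 91.7 ± 3.17 in VCaP16, 94.3 ± 2.35 in VCaP_ENZ and 94.4 ± 0.57 in VCaP_DMSO (SD, n = 3 each). Region 8, at chr22:24199105-24200655, stood at 78.9 ± 5.38 in VCaP16, 81.4 ± 6.77 in VCaP_ENZ and 80.4 ± 6.03 in VCaP_DMSO. In both, the libraries of the 3 groups overlapped. Upstream, a stretch of 41.3 kb without any region separated region 5 from region 4, which was called in 2 VCaP16, 3 VCaP_ENZ and 3 VCaP_DMSO libraries.

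Region 1, the one nearest the left edge of the SMARCB1 window at chr22:24109872-24110876, lay lower in VCaP16. Its percentiles were 32.4, 26.8 and 19.7 in VCaP16, 42.4, 54.9 and 32.4 in VCaP_ENZ and 54.3, 50.4 and 45.8 in VCaP_DMSO. Every VCaP16 library was below every VCaP_DMSO library. VCaP_ENZ overlapped VCaP_DMSO and lay above VCaP16, narrowly, since the 32.4 in both groups differs only before rounding. For VCaP_ENZ against VCaP_DMSO, a contrast the window was not chosen on, the 4 regions of this window called everywhere had adjusted p-values of at least 0.812 by the limma rank test described next.

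**Figure D3:**
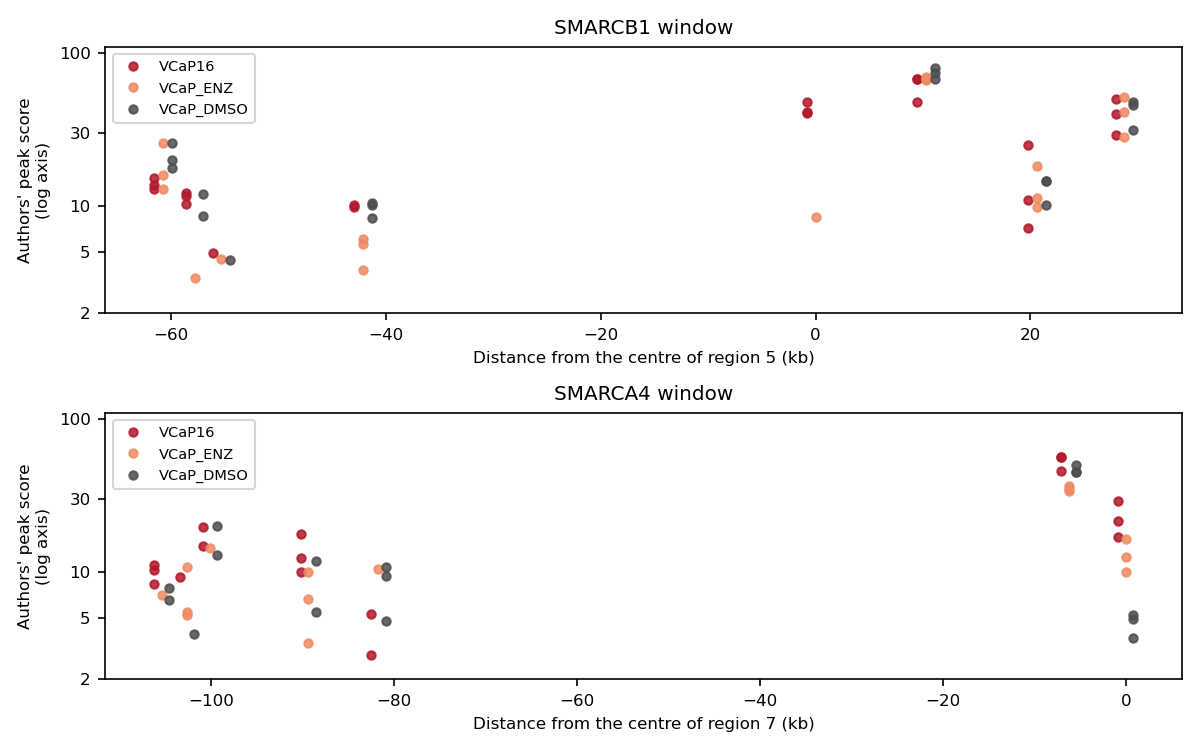
Authors' peak score (y axis, log scale) of every call in the SMARCB1 and SMARCA4 windows against distance in kb from the centre of SMARCB1 region 5 and SMARCA4 region 7 (x axis); each point is a library, and groups are set slightly apart along the x axis so that points can be told apart. At the SMARCB1 centre the VCaP16 points lie at 40.7 to 47.82 with a VCaP_ENZ point at 8.51, and at the SMARCA4 centre the VCaP_DMSO points lie lowest, at 3.7 to 5.24.

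In the limma test, ranks of the 33033 regions called everywhere were turned into normal scores within each library, so that a difference is in units of the standard deviation of all regions, and p-values were Benjamini-Hochberg adjusted over all 33033. For VCaP16 against VCaP_DMSO, 169 regions, or 0.512%, ranked higher in VCaP16 at an adjusted p below 0.05 and 87, or 0.263%, ranked lower. Of the 28 regions called everywhere in the 5 windows other than SMARCB1, 1 ranked higher and 0 lower. The counts over all regions rested on every library of the contrast: leaving out any 1 VCaP16 or VCaP_DMSO library left 5 to 24 higher and 1 to 17 lower, with 5 and 1 without VCaP16 replicate 3, while the member stayed called each time. At an unadjusted p below 0.05, 5 of these 28 ranked higher, where 7.63% of all regions did, and 0 lower, where 6.53% did. Together these were 17.9% of the 28, against 14.2% of all regions. SMARCB1 region 1, which lay lower in VCaP16, is not among the 28, since its window was left out.

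The region that passed was in the window of SMARCA4, the ATPase also known as BRG1. Region 7 of 7, at chr19:11152624-11153196, had scores of 16.93, 21.57 and 29.16 in VCaP16, 10.0, 16.54 and 12.52 in VCaP_ENZ and 4.96, 3.7 and 5.24 in VCaP_DMSO. Its percentiles were 43.8, 54.8 and 54.0 in VCaP16, 18.3, 29.3 and 30.1 in VCaP_ENZ and 0.9, 0.6 and 2.9 in VCaP_DMSO. No library of one group reached the range of another. Among the 33033 regions called everywhere, the peak ranked near the bottom in VCaP_DMSO and near the middle in VCaP16, with VCaP_ENZ between.

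The means at SMARCA4 region 7 were 50.9 ± 6.14 in VCaP16, 25.9 ± 6.61 in VCaP_ENZ and 1.4 ± 1.28 in VCaP_DMSO (percentile, SD, n = 3 each). VCaP16 ranked higher than VCaP_DMSO by 2.25 with an SE of 0.211 (limma, adjusted p = 0.00626), which was the third smallest p of all 33033 regions. VCaP_ENZ differed from VCaP_DMSO by 1.58 with the same SE, and this did not pass after adjustment (limma, adjusted p = 0.106), although it was the fifth smallest p of that comparison. VCaP16 differed from VCaP_ENZ by 0.68, which did not pass either (limma, adjusted p = 0.237). The first 2 of these comparisons share the VCaP_DMSO libraries, so they are not independent. Without any single library the VCaP16 difference from VCaP_DMSO stayed between 2.09 and 2.37 (limma, adjusted p between 0.00707 and 0.0443). The test needs the weak VCaP_DMSO peaks, since only regions called in all libraries were ranked, and it could not be run for this region when peaks scoring below 5 were left out.

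The peaks at SMARCA4 region 7 shared 220 bp in all 9 lists, from 11152889 to 11153108. The region is the one nearest to the right edge of the window, 26.8 kb inside it. Which gene the region belongs to was not tested.

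The other region of the SMARCA4 window called everywhere was region 6, at chr19:11146347-11146997. Its percentile was 88.7 ± 3.93 in VCaP16, 77.6 ± 6.47 in VCaP_ENZ and 84.4 ± 4.54 in VCaP_DMSO (SD, n = 3 each), and the VCaP16 libraries overlapped those of VCaP_DMSO. Region 6 lies next to region 7 along the chromosome, yet its VCaP16 difference from VCaP_DMSO was 0.21 (limma, adjusted p = 0.712). All its VCaP16 libraries lay above all its VCaP_ENZ libraries, with a difference of 0.46 that did not pass (limma, adjusted p = 0.3885). The other 5 regions of this window were called in 5 to 8 libraries each, and none was confined to a group. The region nearest to the left edge, region 1 at chr19:11047393-11047705, was called in 3 VCaP16, 1 VCaP_ENZ and 2 VCaP_DMSO libraries.

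**Figure D4:**
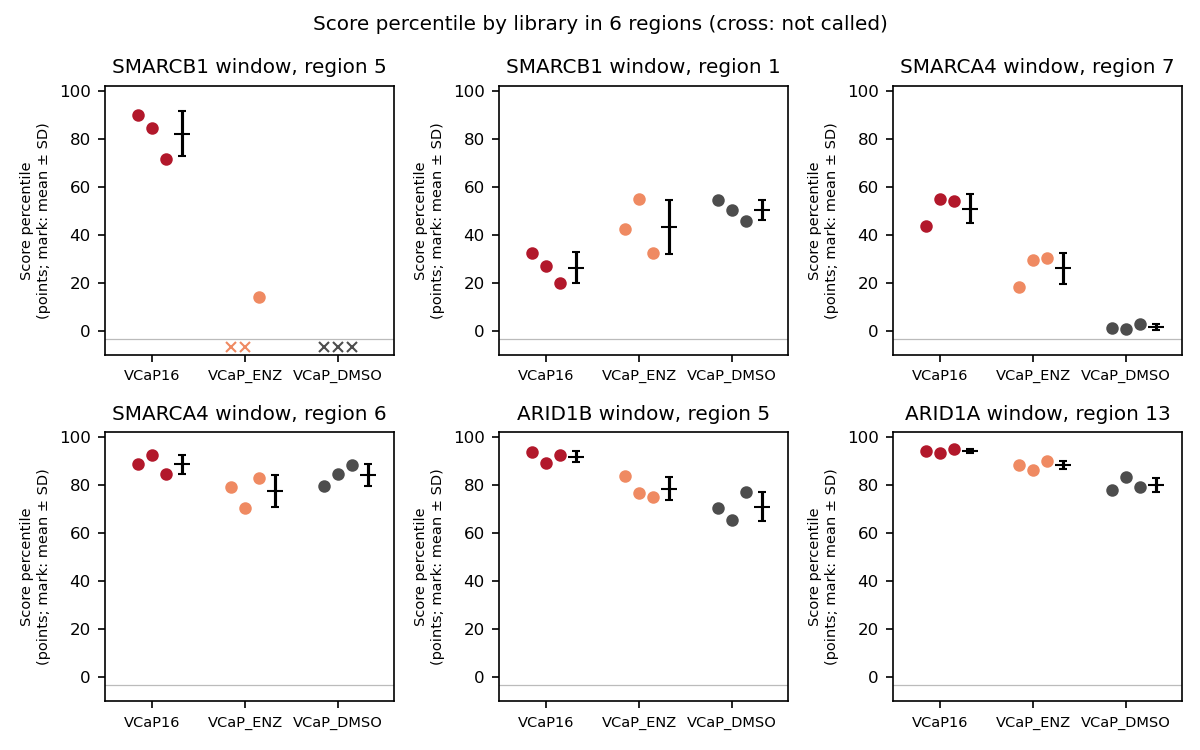
Score percentile (y axis, 0 to 100) of 6 regions in the libraries of VCaP16, VCaP_ENZ and VCaP_DMSO; points are libraries, crosses below the line are libraries without a peak, and black marks are mean and SD where all 3 libraries of a group had a peak. SMARCA4 region 7 steps down without overlap over the 3 groups, at means of 50.9, 25.9 and 1.4, while SMARCA4 region 6 stays between 70.4 and 92.5 in all libraries.

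In the window of SMARCA2, the alternative ATPase also known as BRM, the 2 regions called everywhere were neighbours of unequal strength. Region 1, at chr9:2014702-2016051, had percentiles of 86.4 ± 5.97 in VCaP16, 90.6 ± 3.09 in VCaP_ENZ and 88.5 ± 7.13 in VCaP_DMSO (SD, n = 3 each). Region 2, at chr9:2016254-2017663, had 7.2 ± 2.34 in VCaP16, 3.4 ± 3.70 in VCaP_ENZ and 9.6 ± 2.92 in VCaP_DMSO. The VCaP16 differences from VCaP_DMSO were -0.12 and -0.16 (limma, adjusted p = 0.875 and 0.850), against the 2.25 at SMARCA4 region 7. No region of the SMARCA2 window separated the groups by its calls, and regions 5 and 8 were called in VCaP16 replicate 3 alone.

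In the window of ARID1A, the BAF subunit most often lost in cancer, none of the 5 regions called everywhere passed the adjusted threshold in any contrast. The strongest, region 1 at chr1:27003808-27004493, had percentiles of 91.5 ± 1.90 in VCaP16, 87.6 ± 0.55 in VCaP_ENZ and 89.4 ± 4.05 in VCaP_DMSO (SD, n = 3 each). Region 13, at chr1:27125924-27126996, had percentiles of 94.4, 93.6 and 95.2 in VCaP16, 88.6, 86.5 and 90.2 in VCaP_ENZ and 77.9, 83.4 and 79.4 in VCaP_DMSO. The 3 groups of libraries did not overlap at region 13, with VCaP16 highest and VCaP_DMSO lowest. The VCaP16 difference from VCaP_DMSO was 0.74 with an SE of 0.167 and missed the threshold (limma, adjusted p = 0.0732). It passed when a call needed peaks over at least 50% of the region (limma, adjusted p = 0.043).

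Further along the ARID1A window, region 11 is named after its values were seen, as the member with the lowest VCaP_ENZ rank against VCaP_DMSO. It had percentiles of 12.1, 7.3 and 1.2 in VCaP_ENZ, all below the 20.0, 25.8 and 42.0 in VCaP_DMSO. The difference was -1.06 with an SE of 0.289 (limma, adjusted p = 0.244), so it did not pass. In VCaP16 it stood at 18.3, 30.8 and 19.1, which overlapped VCaP_DMSO.

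The window of ARID1B, the paralogue that takes the place of ARID1A in BAF complexes, held the most regions. The 2 strongest called everywhere were region 30, at chr6:157519531-157520036, and region 6, at chr6:157143558-157144543. Region 30 had percentiles of 91.4 ± 4.70 in VCaP16, 88.4 ± 0.44 in VCaP_ENZ and 86.2 ± 4.38 in VCaP_DMSO. Region 6 had 92.0 ± 1.90 in VCaP16, 85.3 ± 3.43 in VCaP_ENZ and 84.1 ± 3.08 in VCaP_DMSO (SD, n = 3 each). All VCaP16 libraries lay above all VCaP_DMSO libraries at region 6, with a difference of 0.41 that did not pass (limma, adjusted p = 0.329), while the groups overlapped at region 30.

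Region 5 of the ARID1B window, at chr6:157137698-157138107, is named after its values were seen, for having the smallest adjusted p of the members after SMARCA4 region 7 for VCaP16 against VCaP_DMSO. Its percentiles were 93.7, 89.4 and 92.8 in VCaP16, 83.9, 76.8 and 74.9 in VCaP_ENZ and 70.7, 65.5 and 77.2 in VCaP_DMSO. VCaP16 lay above both other groups, which overlapped each other. The difference of VCaP16 from VCaP_DMSO was 0.85 with an SE of 0.186 (limma, adjusted p = 0.0677), so it missed the threshold.

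In the window of PBRM1, a subunit that distinguishes PBAF from BAF, region 1 was the strongest of the 32 regions called everywhere. At chr3:52570211-52571437 its percentile was 98.2 ± 0.13 in VCaP16, 98.1 ± 0.60 in VCaP_ENZ and 98.6 ± 0.57 in VCaP_DMSO (SD, n = 3 each). Region 10, at chr3:52738642-52740545, had 88.1 ± 5.33 in VCaP16, 90.0 ± 4.26 in VCaP_ENZ and 92.0 ± 5.01 in VCaP_DMSO. Their libraries overlapped between all groups. Region 5, at chr3:52684277-52685030, is named after its values were seen, as the member with the smallest p for VCaP16 against VCaP_ENZ. Its percentiles were 77.8, 73.5 and 69.8 in VCaP16, 31.2, 36.1 and 40.3 in VCaP_ENZ and 41.5, 61.7 and 71.7 in VCaP_DMSO. VCaP_ENZ lay below both other groups, which overlapped. The VCaP16 difference from VCaP_ENZ was 1.00 with an SE of 0.220 (limma, adjusted p = 0.132), and the VCaP_ENZ difference from VCaP_DMSO was -0.58 (limma, adjusted p = 0.380), so neither passed.

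Across the 6 windows, short exposure to enzalutamide changed no region past the threshold. For VCaP_ENZ against VCaP_DMSO, limma called 0 of the 32 members in either direction, as it called 0 of 33033 regions (0%). At an unadjusted p below 0.05 the members counted 7, or 21.9%, against 10.8% of all regions. Of these, 3 were higher, as were 5.76% of all regions, and 4 lower, as were 5.07%. For VCaP16 against VCaP_ENZ, limma called 0 members, and 1 of all regions higher (0.00303%) and 0 lower (0%). At an unadjusted p below 0.05 the members counted 11, or 34.4%, against 12.3% of all regions. Of these, 9 were higher, as were 6.04% of all regions, and 2 lower, as were 6.28%. These shares describe 32 regions that lie in only 6 stretches of the genome.

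The differences took both directions. The median VCaP16 difference from VCaP_DMSO was 0.12 over the 28 members outside the SMARCB1 window and -0.02 over all regions, with 20 of the 28 higher and 8 lower. With the SMARCB1 window included, 20 members were higher and 12 lower, where 48.16% of all regions were higher. For VCaP_ENZ against VCaP_DMSO the median was 0.02 over the 32 members, with 18 higher and 14 lower, and for VCaP16 against VCaP_ENZ it was 0.13, with 20 higher and 12 lower. Over all regions these medians were -0.004 and -0.001, with 49.42% and 49.85% higher. Counted by libraries, 7 of the 28 had all VCaP16 percentiles above all VCaP_DMSO percentiles, or 25.0%, against 10.1% of all regions, and 0 had them all below, against 9.8%. In the SMARCB1 window left out of this count, 1 region, region 1, had them all below. For VCaP_ENZ against VCaP_DMSO, 5 of the 32 lay above (8.28% of all regions) and 5 below (7.51%). For VCaP16 against VCaP_ENZ, 9 of the 32 lay above (8.59%) and 2 below (8.99%).

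**Figure D5:**
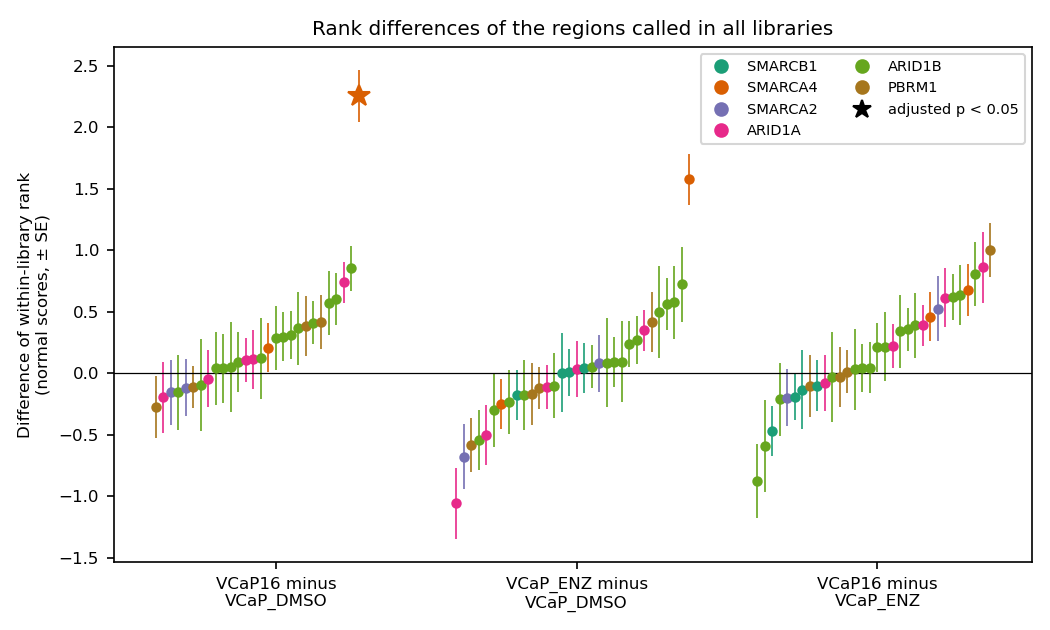
Difference of within-library rank (y axis, normal scores, with SE) of the regions called in all libraries, for VCaP16 minus VCaP_DMSO (28 regions, without the SMARCB1 window), VCaP_ENZ minus VCaP_DMSO and VCaP16 minus VCaP_ENZ (32 regions each), ordered by size within each contrast and coloured by gene window. A star marks an adjusted p below 0.05 (limma), reached by SMARCA4 region 7 at 2.25 in the first contrast. The rest of that contrast runs from -0.28 to 0.85.

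Calls present in all libraries of a group and absent from another were rare. Apart from SMARCB1 region 5, no member was called in 3 of 3 libraries of a group and 0 of 3 of another. The shares of all regions were 0.532% for VCaP_DMSO against VCaP16, 0.653% for VCaP_ENZ against VCaP_DMSO, 0.557% for VCaP_DMSO against VCaP_ENZ, 1.13% for VCaP16 against VCaP_ENZ and 0.41% for VCaP_ENZ against VCaP16, each of which comes to less than 1 region in 78. With calls in at least 2 of 3 libraries of a group and 0 of 3 of another, 2 members were in VCaP16 but not VCaP_DMSO (5.5% of all regions), 1 in VCaP_DMSO but not VCaP16 (2.09%), 0 in VCaP_ENZ but not VCaP_DMSO (2.9%), 1 in VCaP_DMSO but not VCaP_ENZ (2.39%), 2 in VCaP16 but not VCaP_ENZ (4.59%) and 0 in VCaP_ENZ but not VCaP16 (1.97%). The 2 members in VCaP16 but not VCaP_DMSO include SMARCB1 region 5, whose window was chosen from that contrast. The other is in the ARID1A window, at chr1:27032566-27033088, and was weak. Its scores were 4.264 and 3.604 in VCaP16 replicates 2 and 3, at percentiles of 0.8 and 0.1. At SMARCB1 region 5 itself, the VCaP_ENZ call in replicate 3 covers less than 50% of the region, and without that library VCaP_ENZ, like VCaP_DMSO, has no call there.

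The window edges decide which regions were counted. The regions nearest to an edge on the inside lay 7.39 to 44.7 kb from it, with median scores of 2.80 to 100.7, and 9 of these 12 were called in all libraries. On the outside the distances were 0.211 to 97.7 kb, with median scores of 4.24 to 57.9, and again 9 of 12 were called in all libraries. The closest left out was at chr19:11039055-11039789, 0.211 kb before the SMARCA4 window, which all 9 libraries called at a median score of 34.2. The next closest, at chr9:2241821-2242374, lay 1.82 kb beyond the SMARCA2 window and was called in 2 VCaP16, 3 VCaP_ENZ and 2 VCaP_DMSO libraries.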

How the data were processed

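Each library has a list of its own, so no peak call rests on pooled replicates. The build is hg19, and the tools listed, without roles or settings, are MACS2 2.2.7.1, HOMER 3.12 and BWA 0.7.15-r1140, per the submitters' processing notes. The deposited score of a peak is the authors' own value. The sources used here do not say how it was computed, and it was used only to rank peaks within a list. The labels' protocol describes a bulk and a single-cell preparation, and the lists were treated as bulk.

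Peaks on chromosomes 1 to 22 and X were merged at 1 bp of overlap. Normal scores of within-library ranks over the 33033 regions called in all 9 libraries were fitted with limma 3.58.1 in R 4.3.3 (lmFit and eBayes, 9 libraries, group means, Benjamini-Hochberg), and the code was tested on simulated data. An exact permutation test of 3 against 3 libraries cannot go below 0.1 and was not used.

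Members, windows and lists were chosen with earlier results of these data known. Named are the SMARCB1 region of the rule, the 2 strongest regions called everywhere per window, regions called in 3 of 3 against 0 of 3 libraries, regions past an adjusted p of 0.05 and those nearest the window edges. Edge regions not described singly are given by their ranges. Alternatives were a minimum score of 5, lists of equal length, 50% coverage, calls in 2 of 3 libraries, windows widened by 20000 bp, percentile ranks, a replicate block and leaving out each library. Other SWI/SNF subunit genes were not analysed here, because no hg19 annotation was used to place them.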

Additional observations from a re-analysis of the deposited data

How the results depend on the processing

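Of 529 recomputed values, 500 kept their direction and side of the threshold, 28 counts moved by more than 1.5 times, 1 gained the threshold and none reversed. SMARCB1 region 5 was called in 3 of 3 VCaP16 and 0 of 3 VCaP_DMSO libraries under every setting with all 9. This is no check of that contrast, for which the window was chosen. With no VCaP_DMSO peak and VCaP16 scores of 40.7 to 47.82, its calls could hardly change. The region is in every count below of VCaP16 but not VCaP_DMSO. It is also in those of VCaP16 but not VCaP_ENZ with 50% coverage or without VCaP_ENZ replicate 3. With a minimum score of 5, the rank test called 0 members higher in VCaP16 than in VCaP_DMSO, since SMARCA4 region 7 was then not called everywhere. Under that setting 1 member each was called in VCaP_DMSO but not VCaP16, in VCaP_ENZ but not VCaP_DMSO, in VCaP_DMSO but not VCaP_ENZ and in VCaP16 but not VCaP_ENZ. Of the 75799 regions at that score, 460, 532, 443 and 1014 were so called, in the same order. Lists of equal length gave 2 in VCaP_DMSO but not VCaP16 and 1 in VCaP_DMSO but not VCaP_ENZ. Of the 83811 regions of those lists, 882 and 606 were so called. With 50% coverage 16 members were called in all libraries, 2 in VCaP16 but not VCaP_DMSO, 2 in VCaP_DMSO but not VCaP16, 1 in VCaP_DMSO but not VCaP_ENZ and 2 in VCaP16 but not VCaP_ENZ. That setting also took SMARCA4 region 7 out of the test, and the 1 member called was ARID1A region 13 (0.84, limma adjusted p = 0.043). Calls in at least 2 of 3 libraries gave 2, 1, 1 and 2 for the comparisons listed with 50% coverage.

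Leaving out 1 library gave 1 to 2 members in VCaP16 but not VCaP_DMSO (2 without VCaP16 replicate 1), 0 to 1 in VCaP_DMSO but not VCaP16 (1 without VCaP16 replicate 3 or VCaP_DMSO replicate 1) and 0 to 1 in VCaP_ENZ but not VCaP_DMSO (1 without VCaP_DMSO replicate 3). It gave 0 to 1 in VCaP_DMSO but not VCaP_ENZ (1 without VCaP_ENZ replicate 1, 2 or 3 or VCaP_DMSO replicate 1), 0 to 3 in VCaP16 but not VCaP_ENZ (2 without VCaP16 replicate 1, 1 without VCaP_ENZ replicate 2 and 3 without VCaP_ENZ replicate 3) and 0 to 1 in VCaP_ENZ but not VCaP16 (1 without VCaP16 replicate 3).

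Correlations used to check pairing were -0.006 to 0.045 over 9 same-numbered pairs. They do not measure how alike library ranks were. In only 3 pairs, all of VCaP_ENZ with VCaP_DMSO (0.011, 0.045 and 0.023), the library correlated best with its own number. Pairing by number is therefore not excluded between VCaP_ENZ and VCaP_DMSO, which the main fit treated as unpaired. Fitting replicate number as a block left 0 of all regions past the threshold for that contrast. With the replicate block the members called stayed at 1 (SMARCA4 region 7, limma adjusted p = 0.0266), while over all regions 16 ranked higher and 7 lower in VCaP16 than in VCaP_DMSO, against 169 and 87 without it. Over all regions 50% coverage called 108 higher and 49 lower there, percentile ranks 205 and 115, and fits without 1 VCaP_ENZ library 112 to 149 and 52 to 65. For VCaP_ENZ against VCaP_DMSO, percentile ranks called 5 of all regions higher and 4 lower, and none of the members. Depth is unknown, so a region not called may be open below the caller's limit.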
